A study of Homo sapiens with 20 samples.

Results

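The CL1-5 transcriptome after decitabine was read from 2 mRNA-seq libraries, 1 from mock-treated CL1-5 cells (Mock, PBS) and 1 from CL1-5 cells given decitabine (DAC) at 100 nM for 72 hours and then grown for 3 days without drug. CL1-5 is a human lung adenocarcinoma line that was selected for invasiveness from the related line CL1-0. A gene was counted as a member when it reached 1 FPKM (fragments on the gene scaled to its length and to the depth of the library) in either CL1-5 library, and 12937 of the 36076 genes in the table did so. The response of a gene is log2((DAC + 0.1)/(Mock + 0.1)) in FPKM, called the log2 ratio from here on. This scale understates the difference for genes of low level. The study treated 6 lung cancer lines in this way (CL1-5, A549, CL1-0, H1299, H1792 and PC9), with 1 Mock and 1 DAC library for each line, and the log2 ratios of the other 5 lines serve here as the spread against which CL1-5 is set. With 1 library a side there is no test of DAC against Mock within CL1-5. A gene is therefore only said to be at least 2-fold higher or lower, and the p-values below compare lines.

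Decitabine is a cytidine analogue that is built into DNA during replication and traps the DNA methyltransferases, so that methylation is lost as the cells divide. Genes kept silent in somatic cells by promoter methylation, among them cancer testis genes on the X chromosome and germline genes on autosomes, are known to be expressed after such treatment. Hypomethylating drugs are also known for the induction of interferon-stimulated genes and of genes for antigen presentation in cancer cells.

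Promoters of 5 genes among those with the highest log2 ratios or levels after DAC are shown as examples, 2 from germline and X-linked genes without reads in Mock and 3 from interferon-related genes. They were chosen by response, and whether their CpG content is typical of such genes was not tested. The sequences are from RefSeq (GRCh38.p14), run 5′ to 3′ on the strand of the gene and cover 250 bases before to 50 bases after its start. DAZL encodes an RNA-binding protein of germ cells, and PNMA5 belongs to the paraneoplastic antigen family on the X chromosome. In their windows capitals mark CpG dinucleotides, of which there were 33 for DAZL (chr3:16605374-16605673, minus strand) and 23 for PNMA5 (chrX:152994067-152994366, minus strand).
DAZL: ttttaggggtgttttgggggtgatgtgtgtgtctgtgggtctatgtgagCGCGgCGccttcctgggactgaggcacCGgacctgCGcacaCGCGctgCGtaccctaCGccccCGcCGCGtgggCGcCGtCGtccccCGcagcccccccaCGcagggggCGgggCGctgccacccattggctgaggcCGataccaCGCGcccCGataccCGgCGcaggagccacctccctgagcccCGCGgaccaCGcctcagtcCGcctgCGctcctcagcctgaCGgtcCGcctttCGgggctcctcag
PNMA5: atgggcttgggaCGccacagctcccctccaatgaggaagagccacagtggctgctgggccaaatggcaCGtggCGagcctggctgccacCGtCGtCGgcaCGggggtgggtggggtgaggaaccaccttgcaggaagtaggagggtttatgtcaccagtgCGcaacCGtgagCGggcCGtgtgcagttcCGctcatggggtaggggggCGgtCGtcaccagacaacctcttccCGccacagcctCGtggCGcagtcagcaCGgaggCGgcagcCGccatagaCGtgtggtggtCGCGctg
BST2 encodes tetherin, which holds budding virus particles at the cell surface, IFI6 is an interferon-induced mitochondrial protein, and CXCL10 is a chemokine that attracts activated T cells. In their windows capitals mark GAAANNGAAA, searched on both strands, which is the core of the interferon-stimulated response element. There were 2 overlapping matches for BST2 (chr19:17405581-17405880, minus strand), 3 for IFI6 (chr1:27672143-27672442, minus strand) and 1 for CXCL10 (chr4:76023448-76023747, minus strand).
BST2: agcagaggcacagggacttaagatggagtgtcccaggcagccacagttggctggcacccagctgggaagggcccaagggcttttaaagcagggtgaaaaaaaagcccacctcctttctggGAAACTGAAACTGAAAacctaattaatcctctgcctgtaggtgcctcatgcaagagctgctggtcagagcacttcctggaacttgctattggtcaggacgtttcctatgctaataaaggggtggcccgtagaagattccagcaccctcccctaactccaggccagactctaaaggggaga
IFI6: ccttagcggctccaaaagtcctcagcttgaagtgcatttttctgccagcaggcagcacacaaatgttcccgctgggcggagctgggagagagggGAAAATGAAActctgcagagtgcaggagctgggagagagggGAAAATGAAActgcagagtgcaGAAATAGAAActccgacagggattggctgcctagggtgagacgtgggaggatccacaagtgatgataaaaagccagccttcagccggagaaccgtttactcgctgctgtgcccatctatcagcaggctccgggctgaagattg
CXCL10: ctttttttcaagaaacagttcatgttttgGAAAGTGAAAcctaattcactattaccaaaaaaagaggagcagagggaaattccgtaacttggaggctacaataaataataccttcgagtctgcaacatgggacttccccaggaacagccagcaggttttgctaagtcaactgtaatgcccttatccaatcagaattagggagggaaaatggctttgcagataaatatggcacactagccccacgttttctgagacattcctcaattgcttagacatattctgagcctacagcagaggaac
A match describes the letters in the window and is not a measured binding site.

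The Mock library held 25220587 reads on genes and the DAC library 23480895, as recovered from the steps of the FPKM values. The 10 libraries other than H1299 held 22234485 to 25303899. The H1299 libraries held 59735913 and 52634234, and 85.5% and 81.9% of their genes with 1 to 20 reads had an even number, against 39.2% to 41.5% elsewhere. CL1-5 expressed the epithelial keratins KRT8 (75.9 FPKM in Mock and 68.4 in DAC) and KRT18 (65.7 and 66.8) together with the mesenchymal filament gene VIM (353 and 292). The epithelial adhesion genes CDH1 (0.478 and 0.387 FPKM) and EPCAM (0.132 and 1.13) were low in Mock. None of 4 markers of lung epithelium reached 1 FPKM, and NKX2-1, the lung lineage factor, stood at 0.117 and 0.169 FPKM. None of 8 leukocyte markers reached 1 FPKM, and their summed level was 0.216 FPKM in Mock and 1.29 in DAC, with PTPRC and MS4A1 at 0 reads in both. The 2 endothelial markers summed to 0.0443 and 0.451 FPKM, and of 5 fibroblast markers, COL1A1 alone reached 1 FPKM (0.579 and 2.84).

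Of the 12937 members, 642 were at least 2-fold higher after DAC (4.96%) and 403 were at least 2-fold lower (3.12%), while 11892 (91.9%) lay within 2-fold. The median log2 ratio was 0.00, and the 10th and 90th percentiles were -0.54 and 0.55. The higher genes reached further from no difference than the lower ones, with 295 against 86 past 4-fold and 67 against 12 past 16-fold. A 95% counting interval (Clopper-Pearson, on the recovered reads) left out no difference for 564 of the 642 higher and 280 of the 403 lower genes. These intervals cover counting error only, not the spread between cultures. In bulk RNA, more cells that express a gene and more RNA per cell cannot be told apart. The plot of gene levels shows both libraries and the position of the main gene groups. A member that passed the 1 FPKM filter through 1 library alone tends to differ by construction, and this held for 404 of the 642 higher genes (through DAC) and 258 of the 403 lower genes (through Mock). With 1 FPKM or more in both libraries, 238 genes were higher and 145 lower. At the edge of the filter, TLDC2 (0.275 FPKM in Mock and 1.00 in DAC) was just inside, and CC2D2A (0.999 and 0.823) was just outside.

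The counts are given here by kind of RNA and by depth. Among 10860 protein-coding members, 426 (3.92%) were higher and 128 (1.18%) lower. Among 920 long non-coding RNAs the counts were 97 and 85, and among 355 short RNAs they were 55 and 124. Of the lower genes 151, and of the higher genes 105, had under 20 reads in both libraries. At the other end, 59 of the higher genes had 0 reads in Mock.

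Interferon-stimulated genes had the largest share of higher genes among the lists with 20 or more members. Of 46 members, 42 were at least 2-fold higher and 0 lower, with a median log2 ratio of 2.67 against 0.00 over all members. Of the 38 genes with 1 FPKM or more in Mock, 34 were higher. ISG15, a ubiquitin-like protein that is conjugated to other proteins in infected cells, stood at 114 FPKM in Mock (2921 reads) and 1062 in DAC (24283 reads), a log2 ratio of 3.21 (counting interval 3.16 to 3.27). IFI6 stood at 72.9 and 851 FPKM (log2 ratio 3.54). ISG15 and IFI6 were already among the well expressed genes of mock-treated CL1-5 and had the highest levels of any gene that was 2-fold higher after DAC.

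The starting levels of these genes covered a wide range. BST2 stood at 1.09 FPKM in Mock and 75.4 in DAC (33 and 2048 reads, log2 ratio 5.99), the highest log2 ratio of the list. IFITM1, which blocks the entry of enveloped viruses, stood at 0.649 and 29.4 FPKM (log2 ratio 5.30). Its neighbour IFITM3 was abundant in both libraries, at 177 and 444 FPKM (log2 ratio 1.32). LGALS3BP, a secreted glycoprotein, stood at 5.65 and 91.1 FPKM (log2 ratio 3.99), and IFI27 stood at 1.29 and 29.7 (log2 ratio 4.42). In Mock, IFITM1 was thus below the filter while IFITM3 was above ISG15.

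Sensors of viral RNA and the antiviral effectors were higher as well. IFIH1, which encodes the double-stranded RNA sensor MDA5, stood at 2.58 FPKM in Mock and 28.0 in DAC (log2 ratio 3.39), and DDX58, which encodes RIG-I, stood at 10.3 and 53.7 (log2 ratio 2.37). MX1, a GTPase that traps viral nucleocapsids, stood at 4.30 and 56.3 FPKM (log2 ratio 3.68). OAS1, which makes oligoadenylates when it binds double-stranded RNA, stood at 2.63 and 32.7 FPKM (log2 ratio 3.59). IFIT1 and IFIT3, which bind foreign RNA, stood at 21.8 and 24.3 FPKM in Mock and at 173 and 152 in DAC.

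The signalling genes of the pathway split. IRF7, the factor that amplifies interferon transcription, stood at 6.68 FPKM in Mock and 32.7 in DAC (log2 ratio 2.27). STAT2 and IRF9, which carry the interferon signal to the nucleus, did not reach 2-fold, with log2 ratios of 0.90 for STAT2 (7.27 and 13.7 FPKM) and 0.29 for IRF9 (2.51 and 3.08 FPKM). DDX60, a helicase, also lay within 2-fold (log2 ratio 0.95). USP18, which removes ISG15 and dampens the receptor, stood at 5.30 and 35.0 FPKM (log2 ratio 2.7).

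Interferon genes themselves were rare in the libraries. The lambda interferon IFNL1 had 3 reads in Mock and 44 in DAC, a log2 ratio without pseudocount of 4.03 (counting interval 2.39 to 6.36). IFNL2 also had 3 and 44 reads and IFNL3 had 4 and 59, but these genes are near copies of each other whose reads the counting could split. IFNB1, the beta interferon gene, had 0 and 2 reads and was no member.

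The other lines responded less on this list, with A549 nearest to CL1-5. Over these 46 genes the median log2 ratio was 2.05 in A549, 0.46 in H1299, 0.30 in PC9, 0.25 in H1792 and 0.13 in CL1-0. At least 2-fold higher were 35 genes in A549, 18 in H1299, 9 in H1792, 9 in PC9 and 4 in CL1-0. Over all CL1-5 members, the share at least 2-fold higher was 9.76% in A549, 6.11% in H1299, 7.17% in H1792, 5.9% in PC9 and 3.89% in CL1-0. The members were chosen by their level in CL1-5 and not in these lines. CL1-5 lay above all 5 other lines for 29 of the 46 genes. One of these, OAS1, was picked as an example after its values were seen. Its log2 ratio was 3.59 in CL1-5, with a mean of 0.07 ± 0.62 (SD, n = 5 lines) elsewhere. CL1-0, from which CL1-5 was derived, had a log2 ratio of -0.15 for OAS1.

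Genes of MHC class I antigen presentation were higher by smaller steps from higher levels. Of 20 members, 14 were at least 2-fold higher and 0 lower, with a median log2 ratio of 1.19. TAP1, a subunit of the peptide transporter, stood at 13 FPKM in Mock and 61.0 in DAC (log2 ratio 2.22). The immunoproteasome subunits PSMB8 (13.1 and 57.6 FPKM) and PSMB9 (6.23 and 24.0) had log2 ratios of 2.13 and 1.92. TAP1, PSMB8 and PSMB9 differed more than the class I chains given next, but PDIA3 of the same list had its lowest log2 ratio (0.27). B2M, the invariant light chain, stood at 53.3 and 122 FPKM (log2 ratio 1.19). The heavy chains HLA-B (79.6 and 221 FPKM) and HLA-C (68.0 and 144) had log2 ratios of 1.47 and 1.08. Reads of the class I genes can be shared between them. The medians over the same 20 genes were 0.62 in H1792, 0.56 in PC9, 0.25 in A549, 0.16 in H1299 and -0.08 in CL1-0, with 6, 3, 2, 2 and 0 genes at least 2-fold higher. MHC class II had 0 members among the 14 genes of its list in the table, with HLA-DRA at 0 reads and CIITA, its transactivator, at 0.0254 and 0.0369 FPKM.

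Chemokines and cytokines were higher in part. Of 21 members, 14 were higher and 0 lower, but 9 of these 14 stood under 1 FPKM in Mock and could only be members through DAC. Of the 12 with 1 FPKM or more in Mock, 5 were higher. CXCL10 had 0 reads in Mock and 215 in DAC (7.53 FPKM), at least 80.0-fold higher against a floor of 3 reads. CCL5, which recruits T cells, stood at 9.13 and 63.3 FPKM (log2 ratio 2.78), and IL6 stood at 15.1 and 47.0 (log2 ratio 1.63). The growth factors CSF1 (5.44 and 12.9 FPKM) and CSF2 (1.08 and 4.03) had log2 ratios of 1.23 and 1.81. TNF had 1 read in Mock and 93 in DAC, a log2 ratio without pseudocount of 6.70 (counting interval 4.18 to 12.02). CCL3L1, a chemokine gene present in the table under 2 identifiers with near-identical sequence, had log2 ratios of 4.32 and 4.4, and its reads could have been split between them. The neutrophil chemokine CXCL8 was the most abundant cytokine gene and stood at 118 FPKM in Mock and 78.4 in DAC (log2 ratio -0.59), while its log2 ratio was 3.40 in PC9 and 2.23 in H1792. Over the same 21 genes the median log2 ratio was 1.81 in CL1-5 and 2.23 in H1792, with 0.92, 0.66, 0.61 and 0.07 in H1299, PC9, A549 and CL1-0.

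The clustered histone genes, which package replicated DNA and of which most make mRNA without a poly(A) tail, held many higher genes. Of 43 members, 26 were at least 2-fold higher and 1 lower, with a median log2 ratio of 1.31. Of the 32 genes with 1 FPKM or more in Mock, 16 were higher and 1 lower. HIST1H1C, a linker histone, stood at 53.9 FPKM in Mock and 338 in DAC (log2 ratio 2.65), and HIST1H2BK stood at 65.4 and 374 (log2 ratio 2.51). HIST1H2BJ stood at 3.77 and 37.4 FPKM (log2 ratio 3.28, against 1.77 ± 0.27, SD, n = 5 lines). The 1 lower gene, HIST1H2BB, rested on 11 and 4 reads. The list median was above 0 in every line, with values of 1.52 in H1299, 1.03 in A549, 0.95 in CL1-0, 0.49 in H1792 and 0.39 in PC9. CL1-5 lay within that range. Members of this family are alike in sequence, so values of single genes are uncertain.

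The cancer testis genes fell into 2 sets by their level in Mock. All 33 members are on the X chromosome. Of the 21 genes with 1 FPKM or more in Mock, 0 were 2-fold higher and 0 lower, and their log2 ratios ran from -0.84 to 0.63. Of the 12 genes below 1 FPKM in Mock, all were higher, though each had to be higher in DAC to be a member, and 9 had 0 reads in Mock. The plot of cancer testis and germline genes shows this split gene by gene.

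The first set was already abundant in mock-treated cells. GAGE1 stood at 382 FPKM in Mock and 592 in DAC (log2 ratio 0.63), and VCX3A stood at 391 and 532 (log2 ratio 0.44). The melanoma antigen genes MAGEA4 (58.9 and 73.9 FPKM) and MAGEA3 (37.5 and 50.7) had log2 ratios of 0.33 and 0.43. CTAG1A, which encodes the tumour antigen NY-ESO-1, stood at 151 and 115 FPKM (log2 ratio -0.40), and the related CTAG2 at 135 and 120 (log2 ratio -0.17). In A549 the log2 ratios of GAGE1, MAGEA4 and CTAG1A were 9.15, 9.23 and 7.28, and in CL1-0 they were 0.17, -0.25 and -0.79. Many of these genes have near-identical copies (GAGE, VCX, MAGEA, CTAG), so the share of each copy is uncertain.

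The second set had almost no reads in Mock. SSX2, a transcriptional repressor of the SSX family, had 0 reads in Mock and 1045 in DAC (28.0 FPKM), at least 389-fold higher. SSX4 had 0 and 413 reads (13.8 FPKM, at least 154-fold), and SSX1 had 0 and 216 (6.85 FPKM, at least 80.4-fold). Copies within the SSX family and within the PAGE family, here PAGE2B (0 and 122 reads, at least 45.4-fold), can share reads. PNMA5 had 0 reads in Mock and 611 in DAC (7.32 FPKM, at least 227-fold higher). TKTL1, a transketolase-like gene, had 0 and 394 reads (4.45 FPKM, at least 147-fold). MAGEB2 was the member of this set with the highest level in Mock, at 0.756 FPKM, and stood at 11 in DAC (log2 ratio 3.69).

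Autosomal germline genes also split by their level in Mock. Of 11 members, 9 were below 1 FPKM in Mock, and 4 of them had 0 reads there. All 9 were at least 2-fold higher, though each had to be higher in DAC to be a member. The other 28 of the 39 genes of this list in the table stayed under 1 FPKM in both libraries. DAZL (GRCh37 chr3:16628299-16711813, minus strand) had 0 reads in Mock and 639 in DAC (7.25 FPKM), at least 238-fold higher. MAEL, of the piRNA pathway, had 0 and 107 reads (1.40 FPKM, at least 39.8-fold), and SOHLH1, a germ cell transcription factor, had 0 and 90 reads (1.86 FPKM, at least 33.5-fold). CTCFL, the testis paralogue of CTCF, had 1 and 716 reads, a log2 ratio without pseudocount of 9.64 (counting interval 7.16 to 14.95). TDRD12, also of the piRNA pathway, had 2 and 637 reads (8.47, interval 6.61 to 11.52). The other 2 members were expressed in Mock and lay within 2-fold, namely SYCP2 of the synaptonemal complex (11.9 and 11.1 FPKM) and SOHLH2 (2.67 and 3.19).

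The remaining genes with the highest log2 ratios had varied roles. MYL9, a regulatory light chain of smooth muscle and non-muscle myosin, had 1 read in Mock and 1426 in DAC (20.8 FPKM), a log2 ratio without pseudocount of 10.64 (counting interval 8.16 to 15.94). Its log2 ratio was 7.53 with the pseudocount, against 5.43 in A549, 2.72 in PC9 and 0.45 to 0.98 in the other 3 lines. The testis tubulin genes TUBA3E (1 and 506 reads), TUBA3D (6 and 566) and TUBA3C (1 and 251) stood at 13.5, 14.6 and 6.66 FPKM in DAC, with reads that the near-identical copies can share. PNMA6E on the X chromosome had 0 and 521 reads (6.2 FPKM, at least 194-fold higher). PRR20G had 1 and 219 reads. TM4SF18-AS1, an antisense RNA, stood at 1.00 and 78.2 FPKM (log2 ratio 6.15), and whether the counting used the strand is not given in the sources used here.

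Metallothioneins, which bind zinc and copper, differed within the family. MT1E had 0 reads in Mock and 156 in DAC (6.11 FPKM, at least 58.0-fold higher), and the pseudogene MT1L had 0 and 228 reads (22.8 FPKM, at least 84.8-fold). MT1X, expressed in Mock, stood at 7.16 and 4.62 FPKM (log2 ratio -0.62). On the metallothionein list, which holds MT1E but not MT1L, 2 of 6 members were higher and 0 lower, both members through DAC alone. The metallothionein genes are near copies of each other. Of 6 type III and IV intermediate filament genes, 3 were higher and 0 lower, but NES and NEFH had to be higher in DAC to be members, and of the 4 genes with 1 FPKM or more in Mock, 1 was higher. NES (nestin) stood at 0.119 and 7.13 FPKM (log2 ratio 5.04), INA (internexin) at 4.99 and 27.9 (2.46) and NEFH (a neurofilament) at 0.0585 and 2.09 (3.79). VIM, of the same list, lay within 2-fold. Of 11 S100 calcium-binding protein genes, 5 were higher and 1 lower (3 and 1 of the 9 with 1 FPKM or more in Mock), with S100A4 at 4.93 and 45.0 FPKM (log2 ratio 3.16) and S100A16 at 121 and 53.2 (log2 ratio -1.19).

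STAT6, the factor of interleukin-4 signalling, had a Mock level in CL1-5 below that of every other line. It stood at 0.212 FPKM in Mock and 3.23 in DAC (log2 ratio 3.42), while Mock levels in the other lines were 1.83 FPKM in H1299, 9.89 in H1792, 15 in PC9, 16.2 in CL1-0 and 17.4 in A549. Their log2 ratios lay between -0.12 and 0.92. The STAT6 level of CL1-5 after DAC was thus near the H1299 level and below that of the other lines.

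Epithelial genes with 1 FPKM or more in Mock numbered 9, of which 2 were higher and 0 lower. Over all 14 epithelial members 6 were higher and 0 lower (median log2 ratio 0.78), but 4 of the 6 stood under 1 FPKM in Mock and had to be higher in DAC to be members, among them the tight junction gene CLDN7 (0.0888 and 2.26 FPKM, log2 ratio 3.65) and EPCAM (log2 ratio 2.41). Epithelial genes below the filter in both libraries included CDH1 (log2 ratio -0.25) and the splicing regulator ESRP1, at 0.484 and 0.203 FPKM on 64 and 24 reads (-0.95). Of 23 mesenchymal members, 4 were higher and 3 lower (median -0.15). TGFBI, a matrix protein, stood at 10.7 and 42.6 FPKM (log2 ratio 1.98), and S100A4, TGFB2 and THBS1 were the other 3 higher genes. SNAI2, the repressor Slug, stood at 44.3 FPKM in Mock and 17.2 in DAC (log2 ratio -1.36, against -0.20 to 0.76 in the other lines). FN1 (fibronectin) stood at 6.75 and 3.30 FPKM (-1.01) and LOX (lysyl oxidase) at 1.34 and 0.535 (-1.18). SPARC, a secreted matrix protein, stood just inside 2-fold at 44.3 and 22.5 FPKM (-0.97), while its log2 ratio was 5.06 in A549 and 2.76 in PC9.

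Of 27 members among the surface genes that gamma delta T cells and NK cells read, 4 were higher and 1 lower (median log2 ratio 0.29), against 4.96% and 3.12% of all members. ICAM1, the adhesion ligand of LFA-1, stood at 3.20 FPKM in Mock and 17.6 in DAC (log2 ratio 2.42), within the 1.91 to 4.99 of the other 5 lines. ADGRE5 (CD97) stood at 2.32 and 8.45 FPKM (log2 ratio 1.82), whereas the other lines ran from -0.07 to 0.13. MICB, a ligand of NKG2D, stood at 19.6 and 41.8 FPKM (1.09), and PDCD1LG2 (PD-L2) at 1.23 and 2.84 (1.14). The decoy receptor TNFRSF10D stood at 14.2 and 6.17 FPKM (-1.19). Of 11 actin regulators typical of blood cells, 3 were higher and 1 lower, and 1 and 1 of the 9 with 1 FPKM or more in Mock. CORO1A stood at 2.48 and 5.99 FPKM (2.36-fold with the pseudocount), FES at 0.174 and 1.35 (log2 ratio 2.40), FERMT3 at 0.770 and 2.83 (1.75) and ARHGDIB at 10.1 and 4.09 (-1.28). The related HCLS1 stood at 0.174 and 0.412 FPKM and was no member.

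Of 12 members of the DNA methylation machinery, 0 were 2-fold higher or lower, near the background, since 91.9% of all members lay within 2-fold. The maintenance methyltransferase DNMT1 stood at 26.1 FPKM in Mock and 31.5 in DAC (log2 ratio 0.27), and the de novo methyltransferases DNMT3A (1.48 and 1.33) and DNMT3B (5.47 and 9.47) had log2 ratios of -0.15 and 0.78. UHRF1, which brings DNMT1 to replicated DNA, stood at 17.3 and 34.2 FPKM (0.98). Of 12 genes of decitabine uptake and metabolism, 2 were higher and 0 lower, and CDA was a member through DAC alone. SAMHD1, a nucleotide triphosphohydrolase that is also interferon-stimulated, stood at 9.34 and 45.3 FPKM (log2 ratio 2.26). CDA, which deaminates the drug, stood at 0.383 and 2.44 FPKM on 10 and 57 reads (2.39). DCK, the kinase that activates it, stood at 8.16 and 8.22 FPKM (0.01).

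Growth and housekeeping lists held no gene past 2-fold. None of 41 DNA replication genes (median 0.39), 40 mitosis genes (0.12), 26 p53 target genes (-0.06), 79 ribosomal protein genes (-0.09) or 24 cholesterol genes (0.06) was 2-fold higher or lower, where 91.9% of all members lay within 2-fold. Of 373 zinc finger genes named ZNF, 4 were higher and 2 lower, and of 162 solute carriers, 5 were higher and 3 lower. In the plot of list medians the first 4 of these lie between -0.09 and 0.39, below the interferon-stimulated, MHC class I, histone and cytokine lists.

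Of the 403 lower genes, 128 were protein-coding. Among members with a gene symbol, the 15 with the lowest log2 ratios had 3 to 12 reads in Mock and 0 in DAC. Of these, 14 are short RNAs such as the small nucleolar RNA SNORD117 (12 and 0 reads). Among protein-coding genes with 50 reads or more in Mock, a cut chosen after the values were seen, CCBE1, a secreted factor of lymphatic growth, had the lowest log2 ratio (1.83 and 0.282 FPKM, -2.34). The immediate early genes FOSB (13.1 and 2.76 FPKM) and EGR1 (20.5 and 6.67) had log2 ratios of -2.21 and -1.61, but the other lines ran from -1.31 to 3.26 for FOSB and from -2.46 to 1.57 for EGR1. KRT15, a basal keratin, stood at 1.92 and 0.359 FPKM (-2.14), where the other lines had 0.06 to 0.46.

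The lower genes of highest level were PAEP, S100A16, EMP1, HES1 and ZFP36L1. PAEP, which encodes the secreted protein glycodelin, stood at 336 FPKM in Mock and 101 in DAC (13230 and 3562 reads, log2 ratio -1.73). It was at 0 FPKM in the Mock library of every other line and at most 0.136 FPKM in their DAC libraries. HES1, a Notch target, stood at 45.8 and 20.6 FPKM (-1.15), and EMP1, a membrane protein, at 50.1 and 22.8 (-1.13). ZFP36L1, which promotes the decay of AU-rich mRNAs, stood at 43.0 and 20.8 FPKM (-1.04). For HES1 and ZFP36L1 the other lines ran from -0.44 to 0.57 and from -0.84 to 0.10.

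Part of the higher genes were higher in other lines too. Of the 642, 31 were at least 2-fold higher in all 5 other lines, 70 in 4, 91 in 3, 127 in 2, 175 in 1 and 148 in 0. Of the 403 lower genes, 215 were 2-fold lower in no other line and 0 in more than 3. Each line's own members gave 1457 higher genes in A549, 463 in CL1-0, 992 in H1299, 1129 in H1792 and 847 in PC9. A549 shared 215 genes with CL1-5, which is 33.5% of the CL1-5 genes and 14.8% of its own. CL1-0 shared 105, which is 16.4% of the CL1-5 genes and 22.7% of its own. H1792, H1299 and PC9 shared 170, 156 and 103 (26.5%, 24.3% and 16% of the CL1-5 genes). Over all 12937 members, 9.76% were at least 2-fold higher in A549, 3.89% in CL1-0, 7.17% in H1792, 6.11% in H1299 and 5.9% in PC9. At least 2-fold lower were 822 of them in A549, 110 in CL1-0, 583 in H1792, 386 in H1299 and 182 in PC9. CL1-5 lay above every other line for 323 of the 642 higher genes (50.3%) and below every other line for 295 of the 403 lower genes (73.2%), against 1635 (12.6%) and 1661 of all members. The 642 and 403 genes were chosen for high or low CL1-5 values.

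A test of the CL1-5 log2 ratio against those of the other 5 lines found no gene past the threshold. Fitted with limma over 18098 genes at 1 FPKM or more in at least 1 of the 12 libraries, with 4 residual degrees of freedom, 0 genes were higher (0%) and 0 lower (0%) at an adjusted p under 0.05. Without adjustment, 273 were higher and 238 lower at p under 0.05, and limma-voom on the recovered reads gave 0 and 0 after adjustment and 245 and 224 without. The smallest adjusted p was 0.85, reached by STAT6 (difference 3.16, SE 0.42), ADGRE5 (1.78, SE 0.27) and both CCL3L1 entries (4.22, SE 0.67, and 4.61, SE 0.72). Next came CXCL10 (5.61, SE 0.98), UBE2L6, the enzyme that transfers ISG15 (2.12, SE 0.37), and SAMHD1 (2.07, SE 0.36), each at an adjusted p of 0.874 with limma. The counts without adjustment, with limma and with voom, were below the share of genes that chance alone puts past that threshold. The single CL1-5 pair is assumed in this test to vary like the other lines.

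The shared response was tested on the log2 ratios of the other 5 lines, without that of CL1-5. There, 25 of 18098 genes rose after DAC (limma, adjusted p under 0.05, 0.138%) and 0 fell (0%), with 1311 and 527 at an unadjusted p under 0.05 and 130 higher with voom. The call rested on each line, since leaving out A549, H1299 or H1792 left 0 genes and leaving out CL1-0 or PC9 left 2. DAZL, PNMA5, MAGEC2 and SPDYC had the smallest adjusted p (0.00757), and HIST1H2BJ (0.0119), BST2 (0.0151) and SSX4 (0.0151) followed. On the X chromosome lay 14 of the 25. The CL1-5 log2 ratios did not enter this call. The CL1-5 libraries did count in the 1 FPKM filter and in the mean level that the fit used, so a gene could be tested through its CL1-5 level. In CL1-5, 23 of the 25 were at least 2-fold higher, against 6.66% of the 18098 genes. The exceptions were HCLS1 (log2 ratio 0.90) and MAGEA11, which stood at 6.25 FPKM in CL1-5 Mock and 7.62 in DAC (0.28) and rose in the other lines (mean 3.45, SE 0.37). Of the 25, 16 were CL1-5 members and 15 of these were higher. The rest stayed below 1 FPKM in CL1-5, as MAGEC2 did with 0 and 8 reads.

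Members whose promoter window held GAAANNGAAA, as printed for BST2, IFI6 and CXCL10, held a larger share of higher genes. A RefSeq window was found for 8919 of the 10860 protein-coding members (82.1%), and 256 of these held the letters (2.87%), against 996 of all 27305 RefSeq windows (3.65%). Of the 256, 62 were at least 2-fold higher (24.2%), against 254 of the 8663 without (2.93%), and 5 against 95 were lower (1.95% and 1.10%). Without the interferon list, 40 of 233 (17.2%) were higher with the letters and 244 of 8651 (2.82%) without. That list does not hold every interferon-related gene. CXCL10, for example, is counted among the chemokines, so these 40 still include such genes. The counts are a description over the genes with a window and carry no test, and a window was found for 316 of the 426 higher genes (74.2%), so genes without one could move these shares. A check of the CpG content of the higher genes is void at that coverage.

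Protein-coding genes that were higher from a Mock level under 0.1 FPKM numbered 73, and 20 of them lie on the X chromosome (27.4%), against 417 of the 10860 protein-coding members (3.84%). Each of the 73 was a member through DAC alone, and genes under 1 FPKM in both libraries are not in that comparison. Open chromatin at the starts of the 73 genes was read from ATAC-seq, in which the transposase Tn5 cuts accessible DNA. There were 1 Mock and 1 DAC library labelled CL1-5 and 1 of each labelled PC9. The peak names inside the libraries labelled CL1-5 say PC9 and the reverse. The labels were checked against expression. Of 94 protein-coding genes at 5 FPKM or more in CL1-5 Mock and under 0.1 in PC9 Mock, a peak lay within 3000 bp of the start for 51.1% (Mock labelled CL1-5) or 71.3% (Mock labelled PC9). Of 143 genes of the converse kind, the shares were 89.5% and 50.3%. The data thus go against these labels, and both pairs are given.

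In the libraries labelled CL1-5, 38 of the 73 genes had a peak in Mock (52.1%) and 41 in DAC (56.2%). In the libraries labelled PC9, 28 had a peak in Mock (38.4%) and 44 in DAC (60.3%). For the 10301 genes within 2-fold the shares were 85.3% and 85.6% in the former and 85.2% and 86.2% in the latter. These genes had less room to gain a peak, so gains are also given among genes without a peak in Mock. Under the CL1-5 label, 5 of 35 such genes from the 73 had a peak in DAC (14.29%), against 182 of 1516 within 2-fold (12.01%). Under the PC9 label the counts were 18 of 45 (40%) and 309 of 1520 (20.33%). Peak totals also differed, from 85710 in Mock to 97584 in DAC under the CL1-5 label and from 71204 to 91061 under the PC9 label, and their part in these shares was not tested. The starts of DAZL, PNMA5 and MAEL had a peak in both libraries labelled CL1-5, and in DAC but not Mock of those labelled PC9. Other genes with few or no reads in Mock differed from this. SSX2, SSX4, PAGE2B and PNMA6E had no peak in any of the 4 libraries, and CTCFL, MYL9 and NES had one in all 4. SOHLH1 and TDRD12 had a peak in both libraries labelled PC9, and TKTL1 had none there. BST2, IFI6 and ISG15 had a peak in all 4 libraries and CXCL10 in none. On the interferon list, 38 of 46 genes had a peak in Mock and 40 in DAC under the CL1-5 label, and 37 and 38 under the PC9 label.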

How the data were processed

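mRNA (TruSeq Stranded mRNA) was measured in 12 libraries of 6 lines, 1 per line and treatment. Per the labels and methods, the authors trimmed reads with Trimmomatic, aligned them to hg19 (RSEM with bowtie2 in the methods, TopHat2 2.1.1 in the submitters' processing notes), counted them on GENCODE genes and deposited FPKM values made with DESeq2 1.24.0. For ATAC-seq the authors used BWA 0.7.17-r1188, Picard 2.21.4, SAMtools 1.9, MACS2 2.2.5 (broad peaks, per library) and ChIPseeker 1.20.0, and deposited peak lists with a fold enrichment, a ratio that was not compared. The expression table also holds the authors' mean normalised signal per gene, used here to recover reads, and their fold changes, standard errors and p-values, which were not used.

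Whole reads were recovered from the FPKM steps for 100% of values (tolerance 0.01 read) and served for counting intervals, floors (3 reads) and voom. The log2 ratio used a pseudocount of 0.1 FPKM and a filter of 1 FPKM in either CL1-5 library. The other lines were compared with limma 3.58.1 (R 4.3.3, Benjamini-Hochberg adjustment, 4 residual degrees of freedom). The fit was tested on simulated data over 18098 genes for the CL1-5 comparison, where 45 of 100 genes shifted by 4 on the log2 scale and 9 of 100 shifted by 2 were called, with 0 false calls. Python 3.11.15, numpy 2.4.6, scipy 1.17.1, pandas 2.3.3 and matplotlib 3.10.9 were used for the rest. There is 1 library per line and treatment, so p-values measure the spread between lines, not between cultures of a line. GRCh37 positions are from the GENCODE v44lift37 annotation, and motif windows from RefSeq. Peaks were assigned to a gene within 3000 bp of its start.

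Named genes were the 15 highest and 15 lowest log2 ratios, the extremes and 2-fold members of 50 gene lists (48 had a member), 6 fixed genes and the 5 highest-level genes past 2-fold in each direction. Genes were ranked among the 12307 members with a symbol, so members without one were not ranked. Genes named beyond this, such as the 25 called in the other lines and the lower protein-coding genes with 50 reads or more, were chosen after their values were seen. Some list members are counted but not reported here by name. The members and lists were chosen with earlier results of these data known. Alternatives covered the pseudocount, the filter, the scaling, the test, the omission of each other line, the ATAC labels and a peak window of 1000 bp.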

Additional observations from a re-analysis of the deposited data

Results flagged for a closer look

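Of 46 sets with 1 value for each of the 6 lines (medians of gene lists, and the numbers of higher and lower genes), 4 held a line far from the other 5, and chance alone puts about 1 in 20 such sets there. The surface genes read by gamma delta T and NK cells had a median of -0.28 in CL1-0, against 0.21 to 0.44 elsewhere. Imprinted genes had a median of 0.45 in A549, against 0.11 to 0.22. Complement and coagulation genes had 0.71 in A549, against 0.28 to 0.40. Kinesins had -0.51 in H1792, against -0.10 to 0.08. For 3 lists the CL1-5 median lay on the opposite side of 0 from all 5 other lines, and the difference was not tested. The mesenchymal list had -0.15 in CL1-5 against 0.20 to 0.52, the actin regulators of blood cells -0.046 against 0.32 to 1.48, and the claudins -0.34 against 0.31 to 1.02. The genes of each list were chosen by their level in CL1-5.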

How the results depend on the processing

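The numbers of 2-fold genes depended on low levels. The 642 higher and 403 lower genes became 401 and 153 with a pseudocount of 1 FPKM, 238 and 145 with 1 FPKM required in both libraries, 168 and 40 with a mean of at least 5 FPKM, and 2345 and 1761 with no filter. With limits chosen after seeing the data, protein-coding genes gave 426 and 128, and 20 reads or more in either library left 537 higher and 252 lower genes. The higher share of called genes went from 61.4% to 72.4% with the pseudocount of 1. Scaling to a common sum (TPM) moved the median log2 ratio of all members from 0.00 to -0.11 and gave 600 higher and 552 lower genes. The pseudocount stayed at 0.1 on that larger scale and so weighed less, and its part in these counts was not separated from that of the scaling. Quantile normalization moved the median to -0.0381. CL1-5 against the other 5 lines gave 4 higher genes with a pseudocount of 1, and 57 higher and 56 lower with no filter. The 25 genes that rose in the other lines became 0 with a pseudocount of 1 or no filter, 10 with quantile normalization and 130 with voom on recovered reads, and leaving out 1 line gave 0 to 2. The gain in promoter peaks of genes higher from under 0.1 FPKM was 4.11 points under the CL1-5 label and 21.9 under the PC9 label, and 11 and 28.8 with peaks within 1000 bp. The cause of these moves was not tested. Of the list medians, 138 values moved by less than the spread and 6 by more, and of the named genes 1491 and 169. Each log2 ratio pairs DAC with Mock of 1 line, so the fits over lines are paired by line. The read depth limits genes with few reads, and 1 library a side leaves the spread between CL1-5 cultures unknown.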

Other observations

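Other families are given beside the 4.96% of all members that were 2-fold higher and the 3.12% that were lower, and with lists this small 1 gene alone can set a share. Of 12 keratin members, 2 were 2-fold higher and 2 lower, of 12 collagen members 3 and 1, of 16 integrin members 1 and 1, of 9 serpin members 3 and 1, and of 25 semaphorins, ephrins and plexins 4 and 2. Of 20 imprinted genes 4 were higher and 1 lower (1 and 1 of the 16 with 1 FPKM or more in Mock), and of 15 HOX cluster members 1 was higher and 0 lower. Of 14 members among the genes often methylated in lung cancer, 0 were higher and 2 lower, with a median log2 ratio of -0.25. The other 21 of the 35 genes of that list in the table stayed under 1 FPKM in both libraries. Of 14 NF-kB feedback genes, 1 was higher and 0 lower, with a median of 0.52, and CDKN1A of the p53 targets stood at 12 FPKM in Mock and 18.7 in DAC (log2 ratio 0.64). CD274, which encodes PD-L1, stood at 21.7 and 17 FPKM (log2 ratio -0.35).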
